A study of Rattus norvegicus with 12 samples.

Results

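The transcriptome of static peri-implant bone was described from 6 RNA-seq libraries, out of 12 in the series. They were the 3 libraries of non-loaded Nb3 alloy and the 3 of non-loaded cpTi, chosen by their labels and pooled as 1 static condition. The rats were wild type, and mini-implants stood at the site of the maxillary first molar. In the static groups the implant received no cyclic load, whereas the other 6 libraries came from implants loaded cyclically for 2 weeks, 3 of them loaded Nb3 alloy and 3 loaded cpTi. Nb3 alloy is the labels' short name for Zr58Cu25Al14Nb3, and cpTi stands for the titanium implants. Each library was made from the bone inside a 4 mm diameter around the implant. The labels state neither age, sex nor time since insertion, and they do not say whether replicates were separate animals. All spreads and p-values below therefore measure the variation between these libraries, which may in part be technical.

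Jaw bone is a composite tissue. Osteoblasts lay down a matrix of type I collagen and mineral-binding proteins, osteocytes lie buried in that matrix and signal through it, and osteoclasts resorb it with acid and proteases. The spaces of the bone hold marrow, in which red cells, granulocytes, platelets and B cells are made on a supporting stroma, together with vessels and nerves. In an extract of the whole tissue, fewer cells of a type and less RNA per cell cannot be told apart.

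The deposited values were FPKM, fragments per kilobase of gene length scaled by the authors for depth, for 33801 genes. The reads on genes behind the 6 static libraries ranged from 12.9 to 15.3 M. A gene of 1 kb without a single read in a library could still lie at up to 0.176 to 0.223 FPKM there, the level of 3 reads, and this limit covers counting error only. The 6 libraries ranked genes alike, with a Spearman correlation of 0.927 to 0.964 between any 2 of them over the 13989 genes at a mean of 1 FPKM or more. The median was 0.946 for the 6 pairs of libraries within a material and 0.942 for the 9 pairs across materials. These are correlations across genes, which are not independent replicates. The genes that define the labelled tissue were present, with Bglap, Dmp1, Sost and Ctsk at 93.0 FPKM or more in every static library. Of the 6 static libraries, non-loaded cpTi 3 and non-loaded cpTi 2 held the highest values of a set of mostly secreted proteins, described with the most variable genes below.

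Promoters of some of the most abundant and of the 3 most evenly expressed named genes are set beside each other here. The reason is that a TATA box motif was counted in both sets. The promoter of Hba-a1, which was not among the most abundant named genes, is shown only for comparison with that of Hba-a2. All are examples, and most promoters of abundant genes did not hold the motif. Each sequence is the stretch of 60 bases directly before the RefSeq start of the gene in build GRCr8, written 5′ to 3′ on the strand of the gene, and the capitals mark TATAAA. Hba-a2 and Hba-a1 encode alpha globin (chr10:15829139-15829198 and chr10:15842581-15842640, both on the minus strand) and Hbb-b1 encodes a beta globin (chr1:167643521-167643580, minus). S100a9 encodes a calcium-binding protein of neutrophils (chr2:178490623-178490682, minus), Bglap the bone matrix protein osteocalcin (chr2:176137319-176137378, minus) and Rplp0 a ribosomal protein (chr12:46718391-46718450, minus). Np4 and RatNP-3b encode defensins (chr16:77199643-77199702 and chr16:77248978-77249037, both minus). Hm13, a peptidase of the endoplasmic reticulum (chr3:161605999-161606058, plus), Nr1h2, the oxysterol receptor LXR beta (chr1:104183864-104183923, minus), and Mark3, a microtubule-regulating kinase (chr6:136448591-136448650, plus), had the lowest coefficients of variation among the 6 libraries.
Hba-a2: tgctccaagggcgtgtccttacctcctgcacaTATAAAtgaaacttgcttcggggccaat
Hba-a1: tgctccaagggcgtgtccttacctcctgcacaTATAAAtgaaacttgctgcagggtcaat
Hbb-b1: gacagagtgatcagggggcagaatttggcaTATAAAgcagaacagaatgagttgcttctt
S100a9: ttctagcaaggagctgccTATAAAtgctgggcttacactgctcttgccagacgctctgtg
Bglap: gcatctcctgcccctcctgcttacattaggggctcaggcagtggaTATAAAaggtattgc
Rplp0: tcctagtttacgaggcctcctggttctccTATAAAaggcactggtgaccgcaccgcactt
Np4: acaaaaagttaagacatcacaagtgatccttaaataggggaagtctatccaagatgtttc
RatNP-3b: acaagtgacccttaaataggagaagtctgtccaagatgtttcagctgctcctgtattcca
Hm13: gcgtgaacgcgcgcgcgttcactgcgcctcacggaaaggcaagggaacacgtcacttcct
Nr1h2: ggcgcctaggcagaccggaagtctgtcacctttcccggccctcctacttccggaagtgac
Mark3: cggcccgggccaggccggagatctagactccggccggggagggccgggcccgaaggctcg

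The motif TATAAA began 28 bases before the start in both alpha-globin genes, 30 bases before it in Hbb-b1, 31 in Rplp0, 42 in S100a9 and 15 in Bglap. It was not among the letters of the windows of the defensins Np4 and RatNP-3b, nor of Hm13, Nr1h2 and Mark3. On the strand of the gene, 13 of 74 matched promoters (17.6%) of the 100 named nuclear genes with the highest static mean held it. The share was 2 of 124 (1.61%) among genes with a coefficient of variation under 0.05 and 11 of 64 (17.2%) among those over 0.5. Both of these sets hold only named genes at a mean of 10 FPKM or more. A share of this size was thus not found in the abundant set alone. The abundant and the variable set overlap, for instance in Obp2a and Obp1f, so their shares are not independent. Over all 27457 promoters in the RefSeq table the share was 2.83%, and over the 9259 matched genes at a mean of 1 FPKM or more it was 1.75%. On the opposite strand the motif was in 4.05% of the abundant genes, 0% of the most even, 1.56% of the most variable and 1.34% of all promoters, and no promoter of these 3 sets held it on both strands. The windows of Hba-a2 and Hba-a1 were identical at 57 of 60 bases, and those of Np4 and RatNP-3b at 39 of 42 bases once shifted by 18, against 19 of 60 without a shift. A match of letters is a description and not a measured binding site.

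The static transcriptome had a steep top and a long plateau. Of the 33801 genes, 9849 (29.1%) had no read in any static library, 12326 (36.5%) reached 1 FPKM in all 6 and 16095 did so in at least 1. A level of 10 FPKM was reached in all 6 libraries by 5212 genes, 100 FPKM by 319 and 1000 FPKM by 22. The most abundant gene alone took 4.39% of the summed mean FPKM, the top 10 genes 16.7%, the top 100 genes 35.8% and the top 1000 genes 61.4%. At the other end, 392 genes made up 50% of the sum, 6073 genes 90% and 12883 genes 99%. The median of the genes at a mean of 1 FPKM or more was 8.79 FPKM. The order at the top was shared in part, with 6 genes in the top 10 of every static library and 73 in the top 100 of every one.

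**Figure D1:**
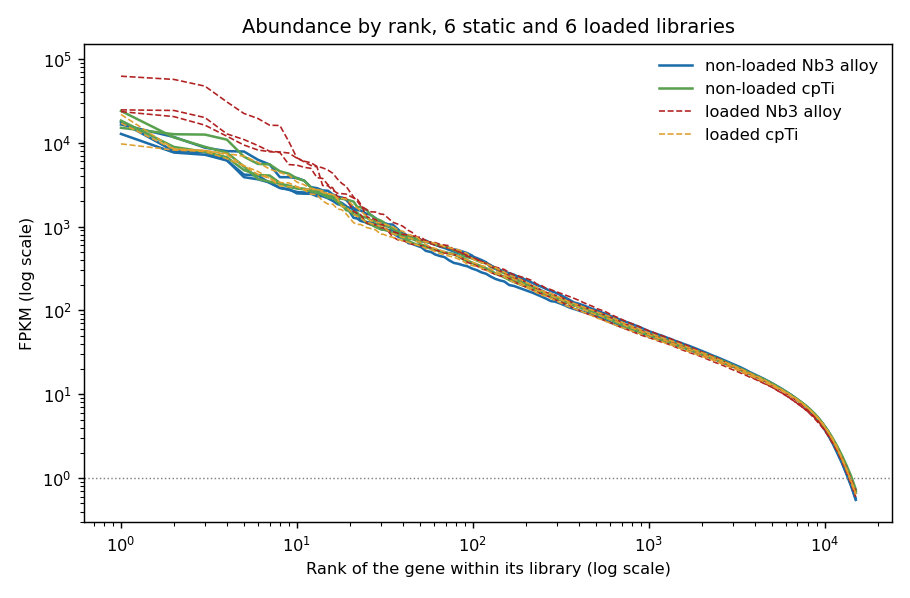
FPKM (log scale) of the gene at each rank within its library (log scale), for 3 libraries each of non-loaded Nb3 alloy, non-loaded cpTi (solid lines), loaded Nb3 alloy and loaded cpTi (dashed lines). The dotted line marks 1 FPKM, which 13590 to 14270 genes reached in the static libraries, and the the loaded Nb3 alloy lines stand apart at the top ranks.

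Protein-coding genes held 96.9% of the summed FPKM of static bone, with 12635 of 23096 at a mean of 1 FPKM or more. Long noncoding RNAs held 0.943% (444 of 2488 at 1 FPKM or more), and the 3241 loci with no gene symbol or biotype 0.739%. Mitochondrially encoded genes took 8 of the top 20 places. Mt-co1, a core subunit of the terminal oxidase of the respiratory chain, stood at 10041 ± 2151 FPKM (SD, n = 6), second only to Hba-a2, and Mt-atp6, a subunit of ATP synthase, at 8799 ± 1919 FPKM. Reads on the mitochondrial genome made up 5.13 ± 0.968% of reads, with 4.31% in non-loaded Nb3 alloy 2 as the lowest and 6.86% in non-loaded cpTi 3 as the highest share. Ribosomal protein genes were the other broad block. Of 115 protein-coding symbols that begin with Rpl or Rps and a digit, 45 were in the top 200, and all 115 took 5.32% of the summed FPKM. This count leaves out Rplp0 and rows known only by description, such as ribosomal protein L10 at 636 ± 117 FPKM (rank 51). It also does not exclude kinases whose symbols begin with Rps6k.

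The most abundant nuclear gene was Hba-a2 (ENSRNOG00000029886, chromosome 10, 15307815 to 15338392 as the deposited table gives it, build not stated). It had 17644, 12710 and 16471 FPKM in non-loaded Nb3 alloy 1, 2 and 3, and 18318, 23873 and 15033 FPKM in non-loaded cpTi 1, 2 and 3. It held rank 1 in all 6 libraries, with a mean of 17341 ± 3775 FPKM. The deposited length of this row was 2860 bases, so its FPKM rests on a longer model than that of Hba-a3 (548 bases, 894 ± 262 FPKM), and how reads were divided among the alpha-globin copies was not tested. Hbb-b1 followed at 2220 ± 404 FPKM, and the 9 listed globin genes together took 5.20 ± 1.05% of the summed FPKM. The embryonic and fetal globins were low, with Hbe1 at 1.26 FPKM, Hbz at 0.0183 FPKM, Hbg1 at 0.0171 FPKM and Hbe2 at 0 in all 6.

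Neutrophil genes filled most of the next places. S100a8 and S100a9, the subunits of calprotectin, averaged 4200 ± 2022 and 3559 ± 1467 FPKM. S100a8 ranged from 2171 FPKM in non-loaded Nb3 alloy 1 to 7918 FPKM in non-loaded Nb3 alloy 3, with the other 4 libraries between 2926 and 4707 FPKM. Lysozyme Lyz2, made by neutrophils and macrophages, stood at 2677 ± 801 FPKM, and the defensin genes Np4, RatNP-3b and Defa5 at 2613 ± 695, 2473 ± 657 and 2280 ± 487 FPKM. Defensins form a multigene family, and how reads were divided among its copies was not tested. The granule proteins Ngp and Camp (the cathelicidin precursor) reached 1343 ± 573 and 1223 ± 522 FPKM. In all 8 of these genes non-loaded Nb3 alloy 3 held the highest value.

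Genes of the bone matrix lay between and below the neutrophil genes in the ranking. Col1a1 and Col1a2, the chains of type I collagen, averaged 2124 ± 961 and 1324 ± 543 FPKM, Bglap 1647 ± 497 FPKM, Spp1 (osteopontin) 979 ± 318 FPKM and Sparc (osteonectin) 778 ± 208 FPKM. Col1a1 had 3878, 1373 and 1422 FPKM in non-loaded Nb3 alloy 1, 2 and 3, and 1570, 2520 and 1983 FPKM in non-loaded cpTi 1, 2 and 3. The highest library, non-loaded Nb3 alloy 1, was also the highest for Col1a2 and Sparc but not for Bglap, whose highest value was 2207 FPKM in non-loaded Nb3 alloy 2. The rest of the top 30 named nuclear genes mixed housekeeping and blood functions. Actb (cytoplasmic actin) stood at 2025 ± 358 FPKM, Fth1 (ferritin heavy chain) at 1297 ± 227, Gpx1 (glutathione peroxidase) at 1053 ± 155, Rplp0 at 1033 ± 173, Prg2 (eosinophil major basic protein) at 1018 ± 462 and Srgn (the granule proteoglycan serglycin) at 943 ± 240 FPKM. Below these came Ybx3, a cold-shock domain protein, at 889 ± 188, Jchain, the joining chain of polymeric antibodies, at 786 ± 166, Slc4a1, the red-cell anion exchanger, at 777 ± 211 and Oaz1, an inhibitor of polyamine synthesis, at 713 ± 93.6 FPKM.

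**Figure D2:**
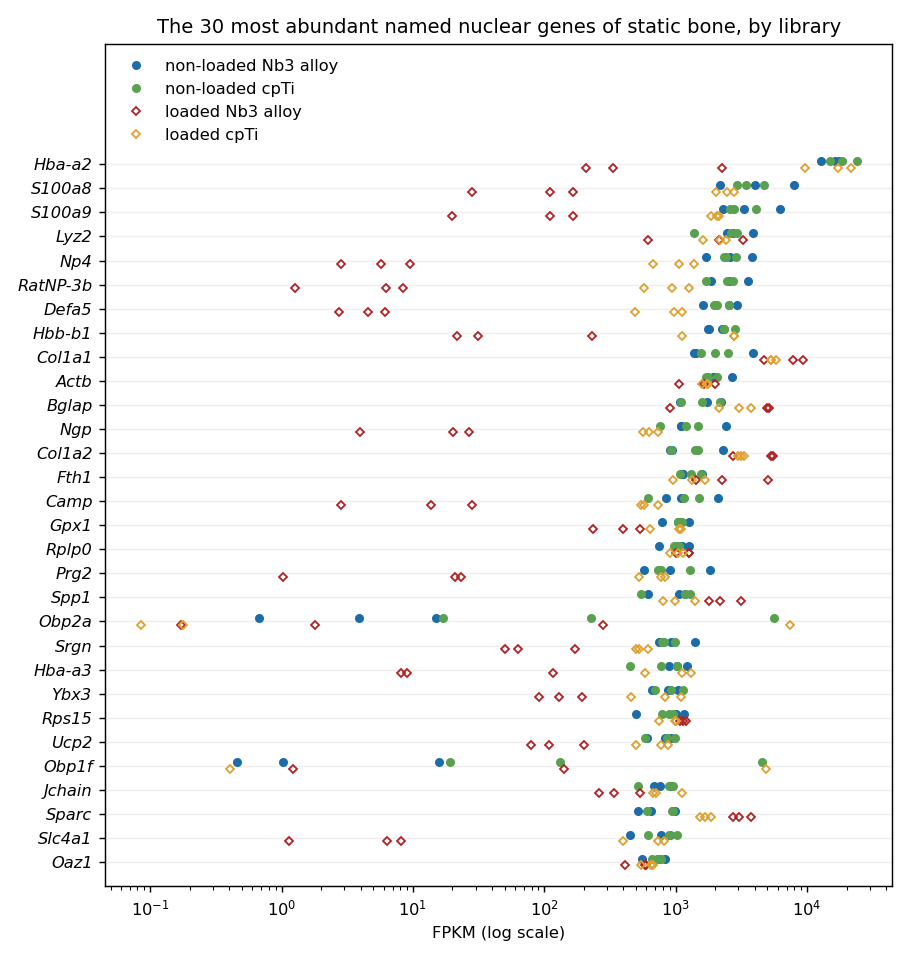
FPKM (log scale) of the 30 named nuclear genes with the highest mean over the 6 static libraries, each point a library, with non-loaded Nb3 alloy and non-loaded cpTi as filled circles above loaded Nb3 alloy and loaded cpTi as open diamonds (values of 0 cannot be drawn on a log axis and are left off). The static libraries spread most for Obp2a and Obp1f, and they lie between 2171 and 7918 FPKM for S100a8 and between 12710 and 23873 FPKM for Hba-a2.

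Gene length shaped part of this order, because FPKM divides by the deposited length. By reads per gene, without division by length, Col1a1 ranked 3 in place of 17 and Col1a2 5 in place of 23, while S100a8, with a deposited length of 357 bases, ranked 32 in place of 6 and Bglap 75 in place of 20. Several abundant rows carry no symbol and are named here only by the deposited description. An immunoglobulin kappa light chain row averaged 1949 ± 440 FPKM (rank 19), a thymosin beta-4 row 1089 ± 271 FPKM (rank 26) and the erythroid 5-aminolevulinate synthase 768 ± 132 FPKM (rank 43). Symbols near 0 for widely expressed genes were thus not always evidence of low expression. The row with the symbol Eef1a1 averaged 0.119 FPKM, while a row described as elongation factor 1-alpha 1 averaged 253 ± 59.6 FPKM.

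Beyond globins, the red-cell program was present along its whole course. All 20 measured members of the list of red-cell membrane proteins and enzymes had a mean of at least 1 FPKM, 9 of them of at least 100, and the list took 0.983 ± 0.152% of the summed FPKM. Ahsp, the alpha-globin chaperone, stood at 511 ± 109 FPKM, the carbonic anhydrases Car2 and Car1 at 424 ± 49.2 and 298 ± 68.2, and Bpgm, which makes 2,3-bisphosphoglycerate, at 280 ± 36.3 FPKM. Of the 14 measured genes of heme synthesis and iron handling 8 exceeded 100 FPKM, among them ferritin light chain Ftl1 (593 ± 45.7), the mitochondrial iron importer Slc25a37 (212 ± 36.8), the transferrin receptor Tfrc (194 ± 37.2) and Fech, which inserts iron into heme (170 ± 28.9). The transcription factors of the lineage followed at lower levels, with Klf1 at 115 ± 23.4, Nfe2 at 100 ± 18.0, Tal1 at 71.6 ± 7.15 and Gata1 at 47.8 ± 7.37 FPKM. The heme and iron list was among the most even of the blood lists, with the highest library at 1.21 times the lowest.

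Granulocytes were represented at every stage of granule formation. The list of azurophil granule genes, many of which are transcribed in promyelocytes, took 1.39 ± 0.346% of the summed FPKM. It also counts Lyz2 and Srgn, which held 0.678% and 0.239% of the summed mean FPKM, and Lyz2 is made by macrophages as well. Among its other members, Mpo (myeloperoxidase) stood at 669 ± 232 FPKM and the proteases Elane and Ctsg at 337 ± 134 and 287 ± 119 FPKM. Mpo had 566, 530 and 1117 FPKM in non-loaded Nb3 alloy 1, 2 and 3, and 726, 530 and 544 FPKM in non-loaded cpTi 1, 2 and 3, so that non-loaded Nb3 alloy 3 stood apart above the other 5. Defensins and secondary granule genes took 3.04 ± 0.737% (19 of 22 measured members at 1 FPKM or more), with Fcnb (ficolin) at 438 ± 165, Lcn2 (lipocalin) at 417 ± 212, the collagenase Mmp8 at 325 and Cyba, a subunit of the phagocyte oxidase, at 213 FPKM. Surface and migration genes of mature neutrophils apart from S100a8 and S100a9 were lower, with Retnlg at 163 ± 49.4, the integrin Itgam at 50.9 ± 18.97, the receptor Csf3r at 42.0 ± 11.6 and Cxcr2 at 28.8 ± 12.5 FPKM. The row named Ltf (lactoferrin) stood at 0.0253 FPKM and Defa8 at 0 in all 6. Eosinophil genes held 0.411 ± 0.148%, with Epx (eosinophil peroxidase) at 226 ± 103, Prg3 at 171 ± 72.2 and the lipoxygenase Alox15 at 146 ± 26.4 FPKM. For the mast cell and basophil list, led among matched symbols by the proteases Mcpt9 (115 ± 17.0 FPKM), Cma1 (45.9 ± 25.8) and Cpa3 (37.6 ± 17.9), the share was 0.0773 ± 0.0178%. A row without a symbol, described as mast cell protease 10, was higher at 265 ± 44.5 FPKM (rank 152). It held 0.0670% of the summed mean FPKM and is not counted in that share.

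Lymphoid genes were uneven between the B and the T lineage. The B lineage list took 0.174 ± 0.0432% and the list of T and NK cells 0.0155 ± 0.00298% of the summed FPKM. Cd79a and Cd79b, the signalling chains of the B cell receptor, averaged 219 ± 58.7 and 65.7 ± 21.8 FPKM. Markers of precursors were present beside them, with the surrogate light chain Igll1 at 33.3 ± 17.4, the recombinase Rag1 at 23.7, Dntt (terminal transferase) at 18.97 and Vpreb2 at 17.0 FPKM. Of the T and NK list, only the adaptor Lat (13.9 ± 1.25 FPKM) exceeded 10 FPKM, Cd3g stood at 9.93 ± 5.89, Cd3e at 1.13 and Cd3d at 1.04 FPKM. Platelet genes took 0.130 ± 0.0504%, led by the chemokines Pf4 (141 ± 58.6 FPKM) and Ppbp (115 ± 76.4) and the integrin chain Itgb3 (75.3 ± 19.8). In Ppbp non-loaded Nb3 alloy 2 was highest at 227 FPKM and non-loaded cpTi 2 lowest at 26.0 FPKM. The gene Gp1bb was at 0 in all 6.

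Antibody genes showed both constant and library-specific parts. Ighm, the mu heavy chain, averaged 626 ± 190 FPKM and ranged over the 6 libraries from 427 to 914 FPKM, and Ighg1 averaged 252 ± 146 FPKM with a range of 77.9 to 500. Of 38 genes with the deposited biotype of a variable region, 31 had a mean of at least 1 FPKM. Their median coefficient of variation (CV, the SD divided by the mean over the 6 libraries) was 0.857, against 0.177 for all genes at that level. Among these 38, the leading gene was not the same throughout: ENSRNOG00000067603 led in non-loaded Nb3 alloy 1 at 96.4 FPKM, ENSRNOG00000070244 led in non-loaded Nb3 alloy 3 at 102 FPKM, and ENSRNOG00000069898 led in non-loaded Nb3 alloy 2 and non-loaded cpTi 2. ENSRNOG00000070933, a row of 297 bases that lies among them on chromosome 6 but has a protein-coding biotype, was not ranked. It had 98.9, 89.7 and 365 FPKM in non-loaded Nb3 alloy 1, 2 and 3, and 74.0, 11.3 and 90.1 FPKM in non-loaded cpTi 1, 2 and 3. Plasma cell genes varied to unequal degrees. The median CV of the list was 0.211, with Sdc1 (syndecan-1) at 0.335 and Mzb1 at 0.247, while Xbp1, a transcription factor of secretory cells, stood at 87.7 ± 7.19 and the prolyl isomerase Fkbp11 at 45.9 ± 1.797 FPKM.

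Macrophage, dendritic and progenitor genes lay in the middle of the range. Besides Lyz2, the macrophage list was led by Apoe (216 ± 86.0 FPKM), the complement genes C1qb (80.4 ± 25.1), C1qc (76.5 ± 22.9) and C1qa (72.1 ± 22.8), and Cd68 (66.0 ± 15.4). The 3 C1q genes were lowest in non-loaded cpTi 2, at 33.3 to 37.8 FPKM, and highest in non-loaded Nb3 alloy 3, at 103 to 110 FPKM. The scavenger receptor Marco was at 0.00479 FPKM. Cd74, the invariant chain of class II antigen presentation, stood at 308 ± 37.9 FPKM. Of the progenitor list Spi1 (PU.1, a master factor of myeloid cells) stood at 72.0 ± 16.8, Cebpe (granulocytes) at 40.6 ± 13.7 and Myb (proliferating progenitors) at 25.2 ± 2.69 FPKM, while Mecom and Hoxa9, linked to stem cells, were under 1 FPKM. Genes of dividing cells were abundant, with 26 of 27 measured members at 10 FPKM or more, Pcna at 144 ± 28.2, Mki67 at 126 ± 18.2 and Top2a at 86.4 ± 12.8 FPKM, and only the row named Foxm1 low, at 0.313 FPKM.

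Among the genes of the marrow stroma, the retention chemokine Cxcl12 was the highest at 309 ± 80.9 FPKM, followed by the adhesion receptor Vcam1 (59.6 ± 17.8) and the leptin receptor Lepr (33.5 ± 11.7), which marks stromal cells around marrow vessels. All 15 listed members had a mean of at least 1 FPKM. Cxcl12 ranged from 166 FPKM in non-loaded cpTi 2 to 393 FPKM in non-loaded Nb3 alloy 3. The adipocyte list held 0.0827 ± 0.0279%, led by Cfd (adipsin, 193 ± 48.9 FPKM), while the fat-cell genes Adipoq and Scd varied more than most, Adipoq with 20.6, 0.118 and 1.05 FPKM in non-loaded Nb3 alloy 1, 2 and 3, and 10.8, 0.450 and 8.47 FPKM in non-loaded cpTi 1, 2 and 3.

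Of the 26 measured osteoblast and mineral matrix genes, 25 had a mean of at least 1 FPKM and 20 of at least 10, and together they took 1.94 ± 0.658% of the summed FPKM. Next to the genes already named, Ibsp (bone sialoprotein) stood at 324 ± 93.9, Alpl (the phosphatase that frees phosphate for mineral) at 94.5 ± 19.6 and the parathyroid hormone receptor Pth1r at 59.4 FPKM. The lineage factors were far lower than the matrix they control, with Runx2 at 17.6 ± 3.21, Sp7 (osterix) at 17.9 ± 6.45 and Dlx5 at 15.02 FPKM. Sp7 had 30.6, 17.8 and 13.4 FPKM in non-loaded Nb3 alloy 1, 2 and 3, and 14.4, 16.9 and 14.4 FPKM in non-loaded cpTi 1, 2 and 3, so only non-loaded Nb3 alloy 1 stood clearly above the rest. All 15 measured genes of collagen processing had a mean of at least 1 FPKM, from the prolyl isomerase Ppib (195 ± 11.3) and the collagen chaperone Serpinh1 (129 ± 33.8) to lysyl oxidase Lox (6.65). Of the other collagens Col3a1 (130 ± 74.7), Col5a2 (85.3 ± 23.8), Col11a2 (57.7 ± 22.4), Col6a1 (56.3 ± 27.9) and Col11a1 (43.6 ± 16.7) were highest.

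Osteocyte genes were among the most uneven of the skeletal lists, the highest library holding 5.87 times the share of the lowest. Sost encodes sclerostin, an inhibitor of Wnt signalling that osteocytes secrete (ENSRNOG00000071073, chromosome 10, 86911517 to 86915561). It had 947, 1143 and 295 FPKM in non-loaded Nb3 alloy 1, 2 and 3, and 236, 93.0 and 390 FPKM in non-loaded cpTi 1, 2 and 3. Mepe, a matrix phosphoglycoprotein, had 732, 457 and 218 FPKM in non-loaded Nb3 alloy 1, 2 and 3, and 149, 100 and 230 FPKM in non-loaded cpTi 1, 2 and 3. Non-loaded Nb3 alloy 1 and 2 were the highest for both genes and non-loaded cpTi 2 the lowest. Dmp1, which regulates mineral and phosphate, averaged 214 ± 134 FPKM and the phosphate-regulating peptidase Phex 38.3 ± 21.8 FPKM, and both were highest in non-loaded Nb3 alloy 1. The hormone Fgf23 was near the limit of the general range at 2.21 FPKM.

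The osteoclast list was steadier, with a median CV of 0.172 among the 19 members at 1 FPKM or more and a share of 0.414 ± 0.0601%. It shares Car2 with the red-cell list, Itgb3 with the platelet list and Mmp9 with the neutrophil list, so its share is not that of osteoclasts alone. Its members Ctsk and Acp5, described next, spread more than the median, with CVs of 0.383 and 0.337. Ctsk, the collagen-degrading cathepsin K, had 361, 762 and 424 FPKM in non-loaded Nb3 alloy 1, 2 and 3, and 419, 440 and 851 FPKM in non-loaded cpTi 1, 2 and 3. Acp5, the tartrate-resistant acid phosphatase, averaged 190 ± 63.8 FPKM and the proton pump subunit Tcirg1 39.1 ± 4.05 FPKM. Members with a role in fusion were low, Dcstamp at 4.71 and Ocstamp at 1.86 FPKM, and the calcitonin receptor Calcr stood at 0.489 FPKM. The signals that govern osteoclast formation were also low in level. Tnfsf11, which encodes RANKL, averaged 1.70 ± 0.812 FPKM, its receptor Tnfrsf11a 3.39 FPKM and its decoy receptor Tnfrsf11b (osteoprotegerin) 4.28 ± 3.37 FPKM. Tnfrsf11b reached 10.97 FPKM in non-loaded Nb3 alloy 1 and lay between 1.69 and 3.95 FPKM in the other 5, and the mean of Tnfsf11 rested on 59 reads per library. The macrophage growth factor Csf1 and its receptor Csf1r, which osteoclast precursors also need, were higher at 18.9 ± 3.70 and 54.7 ± 8.63 FPKM.

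**Figure D3:**
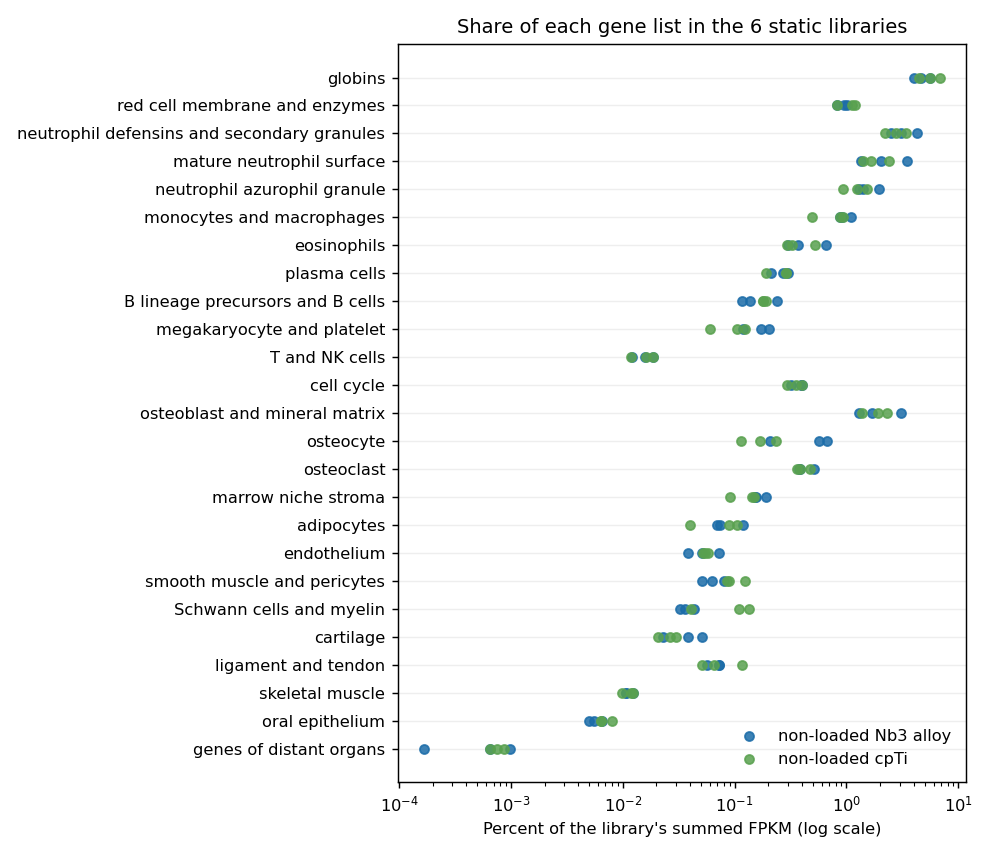
Percent of each library's summed FPKM (log scale) taken by 25 gene lists, each point 1 of the 6 static libraries, blue for non-loaded Nb3 alloy and green for non-loaded cpTi. Globins (4.02% to 6.90%) and neutrophil lists lie at the right, and genes of distant organs (at most 0.000972%) at the left. Lists share some members, and a long list can hold a larger share than a short one.

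Vessels, nerves and the neighbouring tissues made up small shares. All 16 measured endothelial genes had a mean of at least 1 FPKM, with the receptor Tie1 at 27.8 ± 2.72, the fenestral protein Plvap at 26.2 ± 6.55 and Pecam1 at 22.8 ± 3.91 FPKM, and a joint share of 0.0543 ± 0.0110%. Of the smooth muscle and pericyte list Rgs5 (78.6 ± 31.1), Myl9 (73.3 ± 6.84), Tagln (37.7 ± 24.5) and Acta2 (37.2 ± 26.6) were highest. Acta2, smooth muscle actin, lay at 13.2 to 20.1 FPKM in the 3 libraries of non-loaded Nb3 alloy and at 45.8 to 81.3 FPKM in the 3 of non-loaded cpTi, a split that was not tested because the materials were pooled. Myelin genes differed between libraries in the same pattern as each other. Pmp22, a membrane protein of peripheral myelin, had 29.3, 34.2 and 25.4 FPKM in non-loaded Nb3 alloy 1, 2 and 3, and 100.3, 74.2 and 32.3 FPKM in non-loaded cpTi 1, 2 and 3, and Mbp and Prx were likewise highest in non-loaded cpTi 1 and 2.

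Several tissues near the implant site left few transcripts. The enamel and dentin genes Klk4 and Dspp were at 0 in all 6 libraries, Ambn stood at 0.0660, Enam at 0.0757 and Mmp20 at 0.0302 FPKM, and the only abundant member of that list was Dmp1, which bone shares. Of 19 cartilage genes 5 had a mean of at least 1 FPKM, with Col11a2, Col11a1 and Sox6 above 10 FPKM, genes that bone or red-cell precursors also express, while Acan (aggrecan) stood at 0.517, Col10a1 at 0.255 and Col9a1 at 0. Keratins of the oral lining were near 0, with Krt5 at 0.0987 and Krt13 at 0.0296 FPKM and Krt6a and Ivl at 0. Contractile genes of skeletal muscle were low as well, with Acta1 at 0.338, Ckm at 0.135 and Myh4 at 0.0147 FPKM, whereas Mylk2 (16.02 ± 2.71) and Mylpf (12.4 ± 3.43) were the only members above 10 FPKM. Of 22 measured genes of distant organs, such as Alb of the liver and Ins2 of the pancreas, none reached a mean of 1 FPKM and 5 were at 0. The ligament list was led by Thbs4, a thrombospondin (141 ± 71.1 FPKM), Postn, a matrix protein of periosteum and ligament (49.6 ± 26.1), and Tnc, tenascin C (37.1 ± 17.9), while the tendon regulator Scx stood at 1.64 and Tnmd at 0.624 FPKM.

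Secreted signals were mostly low, with a few exceptions. Of 32 measured chemokines and cytokines 4 exceeded 100 FPKM, namely Cxcl14 (371 ± 117), Cxcl12, Pf4 and Ppbp, and 13 had a mean under 1 FPKM, among them Il6 (0.115), Tnf (0.648), Csf3 (0.00941) and Ccl20 (0). Il1b stood at 8.61 ± 2.26 FPKM. Of the BMP and TGF-beta list, Tgfb1 was highest at 123 ± 21.4, followed by Fstl1 (41.7 ± 9.83) and Ltbp3, which anchors latent TGF-beta (39.1 ± 13.4), while Bmp2 stood at 8.68, Bmp4 at 8.66 and the antagonist Nog at 1.41 FPKM. Wnt ligands were lower still. Wnt5b was the highest at 5.62 and Wnt3a was at 0 in all 6, against Sost at 517 ± 424, the effector Ctnnb1 at 175 ± 36.6, the secreted inhibitor Wif1 at 42.9 ± 19.5, the sclerostin-binding receptor Lrp4 at 41.4 ± 18.1 and the inhibitor Sfrp2 at 32.2 ± 23.9 FPKM. Besides Tgfb1, growth factors included the matricellular Ccn1 at 34.3 ± 11.2, Igf1 at 33.2 ± 11.02, Ccn2 at 25.9 ± 5.54, Mdk (midkine) at 24.6 ± 8.91, Ptn (pleiotrophin) at 21.3 ± 12.5 and Vegfa at 14.9 FPKM. Among immediate early genes Jund was the highest at 96.1 ± 11.2, with Zfp36 at 37.6 ± 4.35, Egr1 at 28.5 ± 5.72 and Fos at 25.0 ± 11.2 FPKM. Fos was lowest in non-loaded Nb3 alloy 1, at 7.10 FPKM, and lay between 19.7 and 39.6 FPKM in the other 5.

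The deposited table assigns a factor family to 1605 genes, of which 885 (55.1%) had a mean of at least 1 FPKM, 334 of at least 10 and 8 of at least 100, where of all 33801 genes 13989, 6337 and 455 reached these levels. These 8, chosen after their values were seen, were the cold-shock proteins Ybx3 (889) and Ybx1 (147), an HMG-box row named Hmgb2l1 (580 ± 77.8), the cell-cycle factor E2f2 (130 ± 15.2), the homeobox gene Hopx (125 ± 35.2), the stress factor Atf4 (123 ± 17.4), the methyl-CpG binding gene Mbd2 (105 ± 8.94) and Nfe2 (100 ± 18.0 FPKM). Among genes at a mean of 1 FPKM or more, the median of the 885 factors was 6.67 FPKM, against 8.79 for all genes.

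The spread between static libraries was larger than counting gives. The median CV was 0.221 for genes at a mean of 1 to 10 FPKM, 0.138 for those at 10 to 100 and 0.193 for those at 100 or more, where the counting of reads alone gives 0.0783, 0.0331 and 0.0135. The SD taken within each material and the SD over all 6 libraries had a median ratio of 1.06, so pooling the materials did not widen the spread of the typical gene. At a mean of 10 FPKM or more, 142 genes had a CV under 0.05 and 40 had a CV over 1. The named gene with the lowest CV was Hm13 (ENSRNOG00000007738), with 43.2, 43.3 and 43.5 FPKM in non-loaded Nb3 alloy 1, 2 and 3, and 43.1, 43.0 and 44.6 FPKM in non-loaded cpTi 1, 2 and 3, a CV of 0.0135 against 0.0200 from counting alone. Nr1h2 (40.01 ± 0.644 FPKM), Mark3 (22.96 ± 0.483), Ccm2, a scaffold protein of vessel integrity (11.6 ± 0.244), and Rbm39, a splicing factor (40.97 ± 0.984), followed. The rest of the 15 were Ccdc47, Ing1, Upf2, Cpsf3, Lrpprc, Glmp, Rbbp6, Foxk2, Ankmy2 and Marcks, at 12.1 to 38.1 FPKM and with CVs up to 0.0298. Because they are the lowest of 6337 genes, their CVs are low in part by selection.

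Reference genes of quantitative PCR were more variable than these, an order fixed in advance because the 15 were picked for low CVs. The median CV of the reference genes was 0.190. It was 0.142 for all genes at a mean of 10 FPKM or more and 0.193 for those at 100 or more. Actb had a CV of 0.177, Gapdh (100 FPKM) of 0.240, B2m (484 FPKM) of 0.171 and Rplp0 of 0.168. Of the 15 measured members Sdha, a subunit of succinate dehydrogenase, had the lowest CV, 0.0770 at 39.5 FPKM, followed by Hprt1 (0.113 at 32.0 FPKM) and Ywhaz (0.117 at 192 FPKM). Actb was highest in non-loaded Nb3 alloy 3, at 2696 FPKM, and lay between 1695 and 2063 FPKM in the other 5. The translation factor Eef2 was both abundant and even, at 667 ± 24.0 FPKM with a CV of 0.0359.

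**Figure D4:**
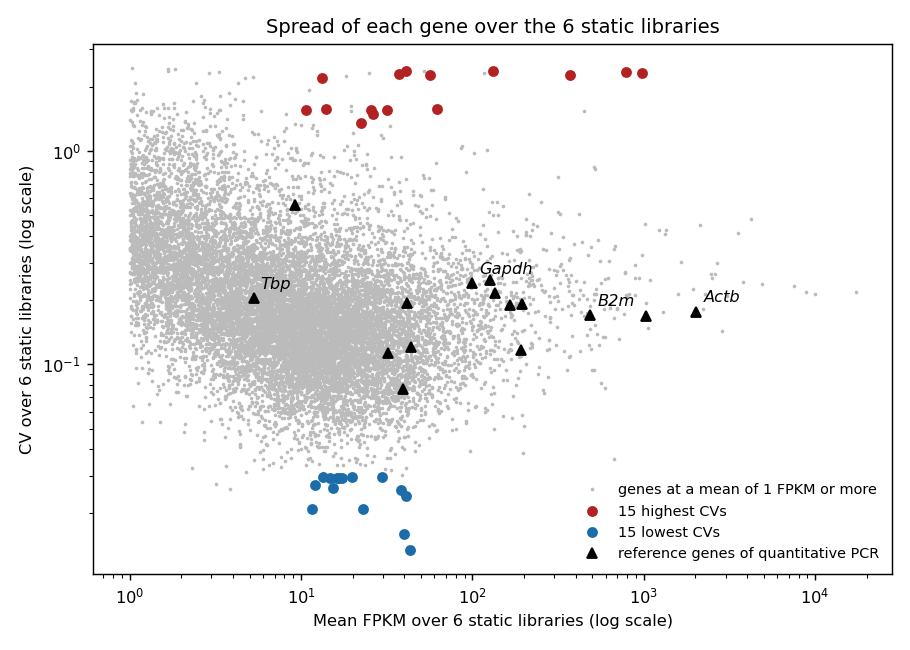
Coefficient of variation over the 6 static libraries (log scale) against mean FPKM (log scale) for genes at a mean of 1 FPKM or more (grey), with the 15 highest (red) and 15 lowest (blue) CVs among named genes at a mean of 10 FPKM or more and the reference genes of quantitative PCR (black triangles). Actb and B2m lie near a CV of 0.17 to 0.18 and the 15 lowest all under 0.03.

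Most of the 15 most variable named genes had their highest values in non-loaded cpTi 3 or non-loaded cpTi 2. Obp2a, an odorant-binding protein of the lipocalin family that carries small molecules in mucus (ENSRNOG00000042407, chromosome 3, 8505990 to 8509269), had 3.88, 0.668 and 15.04 FPKM in non-loaded Nb3 alloy 1, 2 and 3, and 16.95, 226 and 5586 FPKM in non-loaded cpTi 1, 2 and 3. Obp1f had 1.02, 0.462 and 15.7 FPKM in non-loaded Nb3 alloy 1, 2 and 3, and 19.3, 132 and 4554 FPKM in non-loaded cpTi 1, 2 and 3. Both were highest in non-loaded cpTi 3 and next highest in non-loaded cpTi 2, and the same order held for Obp3, Obp2b, Lpal2, the secreted nuclease Dnase1 and Pip, the prolactin-induced protein of exocrine glands. Without non-loaded cpTi 3 the mean of Obp2a was 52.5 in place of 975 FPKM, and that of Obp1f 33.7 in place of 787 FPKM, so that their place among the top 30 rests on this library. In the loaded libraries, Obp2a reached 7405 FPKM in loaded cpTi 1 and 280 FPKM in loaded Nb3 alloy 2 and stayed under 2 FPKM in the other 4.

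In A2ml1, Bpifb5, Bpifa1, Csap1 and Pigr the same libraries, non-loaded cpTi 2 and 3, were high to a similar degree. Bpifb5, of the BPI-fold family of airway and oral secretions, had 0, 0.0667 and 0.811 FPKM in non-loaded Nb3 alloy 1, 2 and 3, and 0.0723, 215 and 157 FPKM in non-loaded cpTi 1, 2 and 3. Pigr, the receptor that carries antibodies across gland epithelium, was at 75.5 and 78.2 FPKM in non-loaded cpTi 2 and 3 and at 0.734 to 1.08 FPKM in the other 4. An unnamed row described as similar to vomeromodulin, another secreted BPI-fold protein, followed the same split, with 1327 and 1351 FPKM in non-loaded cpTi 2 and 3 and at most 6.04 FPKM elsewhere among the static libraries. The epithelial marker Epcam was at 4.96 and 6.65 FPKM in non-loaded cpTi 2 and 3 and at most 0.795 FPKM in the other 4. The whole list of oral epithelium took 0.00502% to 0.008095% of the summed FPKM over the 6 libraries, and its part in these values was not tested. The remaining 3 genes had other patterns. Matn4, a matrilin of cartilage and other matrices, was at 72.7 FPKM in non-loaded cpTi 2 and at most 1.60 FPKM in the other 5 static libraries, but at 191 to 435 FPKM in loaded Nb3 alloy. The lysozyme Lyc2 was at 103 FPKM in non-loaded Nb3 alloy 3, and the basophil protease Prss34 was at 76.1 FPKM in non-loaded cpTi 1 and 41.3 FPKM in non-loaded Nb3 alloy 3.

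**Figure D5:**
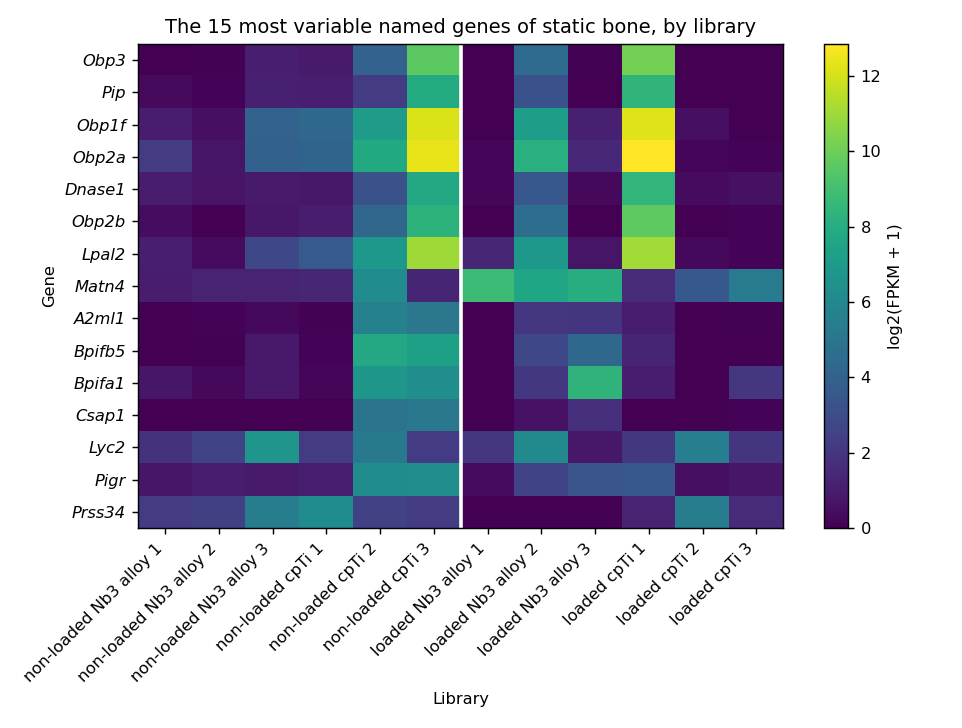
log2(FPKM + 1) of the 15 named genes with the highest CV over the 6 static libraries (rows) in all 12 libraries (columns), non-loaded Nb3 alloy and non-loaded cpTi left of the white line and loaded Nb3 alloy and loaded cpTi right of it. The upper 7 genes are brightest in non-loaded cpTi 3 and in loaded cpTi 1, where Obp2a stood at 5586 and 7405 FPKM.

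Compared with the loaded libraries, the static libraries were close to loaded cpTi and far from loaded Nb3 alloy. Pearson correlations of log2(FPKM + 1) across the 15268 tested genes were 0.932 to 0.966 with loaded cpTi and 0.731 to 0.805 with loaded Nb3 alloy, while the 6 static libraries correlated at 0.936 to 0.969 with each other. Of the 100 most abundant static genes, 92 were also in the top 100 of loaded cpTi and 64 in that of loaded Nb3 alloy. The concentration of the transcriptome did not differ beyond the spread between libraries when the materials were pooled. The top 100 genes took 36.3 ± 2.25% of the summed FPKM in static and 43.5 ± 9.70% in loaded libraries (n = 6 each, exact two-sided permutation test p = 0.110, adjusted over 4 values p = 0.193), and reads on mitochondrial genes made up 5.13 ± 0.968% in static and 10.2 ± 7.71% in loaded libraries (exact permutation p = 0.145, adjusted p = 0.193). Genes at 1 FPKM or more numbered 13929 ± 271 in static and 13922 ± 115 in loaded libraries (exact permutation p = 0.959). The number of genes needed for 50% of the summed FPKM was 385 ± 75.1 in static and 248 ± 170 in loaded libraries (exact permutation p = 0.108, adjusted p = 0.193). Without loaded cpTi 2 the exact permutation p was 0.0281 for the top 100 genes and 0.0346 for the genes that make 50% of the sum, and for mitochondrial reads it was 0.0433 to 0.0498 without any 1 of the loaded cpTi libraries. The wide spread on the loaded side came with a split by material, since the top 100 genes took 35.3 ± 2.06% in non-loaded and 51.1 ± 7.35% in loaded Nb3 alloy, and 37.3 ± 2.27% in non-loaded and 35.8 ± 2.15% in loaded cpTi (n = 3 each). With 3 against 3 libraries an exact test cannot give a p below 0.1, the value reached in Nb3 alloy, and it gave 0.5 in cpTi.

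In limma on log2(FPKM + 1), with both materials weighted equally and a call at a Benjamini-Hochberg adjusted p under 0.05, 5713 of 15268 genes (37.4%) differed between static and loaded bone, 3271 (21.4%) higher and 2442 (16%) lower in static bone. With every library rescaled to a common total the split was 3983 higher and 1117 lower, and the median log2 difference of all tested genes was 0.16 in place of 0.02. The same model called 6996 genes (45.8%) within Nb3 alloy, 25.2% of all tested being higher and 20.7% lower in static bone, and 1 (0.00655%) within cpTi, where 1062 had an unadjusted p under 0.05. The difference itself differed between the materials for 3089 genes (20.2%), toward higher static values in Nb3 alloy for 11.8% of all tested and toward lower ones for 8.42%. Of the 100 most abundant static genes, all tested, 30 were higher and 18 lower in static bone. These genes were chosen by their static mean, which favours higher calls, so nothing is read from that split. Of the 5713 called genes, 5432 were also called within Nb3 alloy and 1 within cpTi, and the interaction was called for 2705 of them.

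Of the 20 most abundant named nuclear genes, 11 were higher and 2 lower in static bone. They too were chosen by their static mean. The defensin Defa5 averaged 2280 ± 487 FPKM in static bone (n = 6), 4.46 ± 1.69 FPKM in loaded Nb3 alloy and 860 ± 331 FPKM in loaded cpTi (n = 3 each). Its log2 difference was 5.10 (SE 0.25, limma adjusted p = 6.63e-07), and no static library fell below the highest loaded one. Np4 (log2 difference 4.98), RatNP-3b (5.13), Camp (3.74), Ngp (3.72), Prg2 (3.48), S100a9 (3.13) and S100a8 (3.13) were also higher in static bone, as were Hbb-b1 (2.70) and Gpx1 (0.85). Hba-a2 averaged 17341 ± 3775 FPKM in static bone, 928 ± 1139 FPKM in loaded Nb3 alloy and 16154 ± 6069 FPKM in loaded cpTi, a log2 difference of 2.57 (SE 0.51, limma adjusted p = 0.00281). Static and loaded cpTi libraries overlapped for Hba-a2, and those of loaded Nb3 alloy, at most 2242 FPKM, lay below both. Type I collagen was lower in static bone. Col1a1 averaged 2124 ± 961 FPKM in static bone, 7323 ± 2377 FPKM in loaded Nb3 alloy and 5468 ± 302 FPKM in loaded cpTi, with a log2 difference of -1.65 (SE 0.29, limma adjusted p = 0.00158). Its highest static library, at 3878 FPKM, was below the lowest loaded one, at 4714 FPKM. Col1a2 was lower as well, with a log2 difference of -1.56 (limma adjusted p = 0.00173). The other 7 of the 20 did not pass: Bglap (-0.86, limma adjusted p = 0.138), Spp1 (-0.74, 0.0577), Fth1 (-0.49), Rplp0 (-0.10), Actb (0.32), Lyz2 (0.49) and Obp2a (1.401, SE 2.41). Bglap passed without loaded Nb3 alloy 2 (-1.27, limma adjusted p = 0.00363), Spp1 without any 1 of 3 libraries (limma adjusted p = 0.0427 to 0.0476 without loaded Nb3 alloy 2, non-loaded cpTi 2 or non-loaded Nb3 alloy 1), and Actb at a common total (0.49, limma adjusted p = 0.0154). Within cpTi none of the 20 passed in limma, and the largest difference there was that of Obp2a (3.74, adjusted p = 0.853).

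By list, members called are given as counts beside the background of 21.4% higher and 16% lower over all genes. All 26 tested cell cycle genes were higher in static bone, with a median log2 difference of 1.87, as were 19 of 20 red-cell membrane and enzyme genes (2.87), 17 of 19 B lineage genes (1.57), 15 of 20 defensin and secondary granule genes (1.86) and 7 of 8 eosinophil genes (2.95). Lower in static bone were 15 of 15 collagen processing genes (-1.14), 18 of 23 collagen chains (-1.40), 12 of 16 endothelial genes (-0.87), 12 of 14 smooth muscle and pericyte genes (-0.86), 11 of 25 osteoblast and matrix genes (-0.90) and 10 of 20 osteoclast genes (-0.60). Of 27 chemokines and cytokines 14 were lower and 2 higher, of 19 macrophage genes 8 were lower and 1 higher, and of 16 T and NK genes 5 were lower. Of 13 osteocyte genes 1 was lower and of 15 protein synthesis genes 2 were higher. With libraries rescaled to a common total, the counts lower in static bone were 2 of 20 for osteoclast, 6 of 14 for smooth muscle and pericyte, 7 of 25 for osteoblast and matrix, 11 of 15 for collagen processing, 16 of 23 for collagen chain and 11 of 16 for endothelial genes. At that scaling fewer of all tested genes were called lower and more were called higher than in the background above. The median log2 difference of all tested genes was 0.16 in place of 0.02, so nothing is read from the drop in these counts. The counts of higher cell cycle, red-cell membrane, B lineage and eosinophil genes were the same at either scaling. Defensin and secondary granule genes called higher came to 18 of 20. Within cpTi no member of any of the 47 lists was called in limma, where 1 gene passed in all. A missed call does not show that the difference was absent there. Col1a1 had a log2 difference of -1.46 within cpTi and -1.84 within Nb3 alloy (limma interaction adjusted p = 0.693), and its non-loaded cpTi libraries, at 1570 to 2520 FPKM, lay below the loaded cpTi ones, at 5284 to 5816 FPKM. The interaction was called for 20.2% of all tested genes. It was called for 4 of 15 collagen processing genes, near that share, and for 1 of 25 osteoblast and matrix genes. Among cell cycle genes it was called for 26 of 26, and among red-cell membrane and enzyme genes for 20 of 20.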

How the data were processed

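Polyadenylated RNA of peri-implant bone was isolated with TRIzol and sequenced from a NEBNext Ultra library, per the labels' protocols. The authors deposited 1 table of FPKM with gene length, position and symbol. HISAT2 2.0.5 and featureCounts 1.5.0-p3 stand in the submitters' processing notes, next to DESeq2 1.20.0, fastp and CASAVA 1.8. Neither build, annotation nor strand use was given in the sources used here, so reads of overlapping and antisense genes cannot be told apart.

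Multiplied by gene length, 100% of FPKM values came to a whole number of reads (tolerance 0.01 read), which gave the depth per library, 12.9 to 15.3 M in static bone. Means, SDs, CVs and ranks were computed over the 6 static libraries, and the CV from counting alone from those reads. Static and loaded libraries were compared with limma 3.58.1 (statmod 1.5.0, R 4.3.3) on log2(FPKM + 1), for genes at 1 FPKM or more in at least 3 libraries, with 1 mean per group, all 12 libraries, trended, robust moderation and 8 residual degrees of freedom. A fold change on this scale understates that of low genes. Exact two-sided permutation tests used scipy 1.17.1, and their smallest p is 0.00216 for 6 against 6 libraries. Tables and plots used Python 3.11.15, numpy 2.4.6, pandas 2.3.3 and matplotlib 3.10.9. On simulated data for 15268 genes, static minus loaded recovered 62.2% of 98 genes changed 2-fold and 92.9% of 98 changed 4-fold, with 3.18% false calls.

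Members of the 47 lists were matched by deposited symbol (706 of 788). Named were the 30 nuclear genes with the highest static mean and a symbol, up to 5 leading members per list and members near 0 that define it, a panel of 12 bone genes, the 15 highest and 15 lowest CVs at a mean of at least 10 FPKM, the reference genes, and, for static minus loaded, the 20 most abundant. Other list members are given as further examples. The lists, members and rules were chosen with earlier results of these data known. Promoters are RefSeq's, build GRCr8, matched by symbol.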

Additional observations from a re-analysis of the deposited data

Results flagged for a closer look

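A static library far from the other 5 was found for 38 of 306 values tested, 12.4%, where chance gives about 1 in 20 for normally distributed values. That share is in part fixed by the choice of genes, since 9 of the 38 are among the 15 genes named for their high CV. A normal spread was not checked, some values were 0 in 5 libraries, and list shares contain some of the genes tested singly. Nothing is therefore read from the excess over 1 in 20. Of these 38, 10 pointed to non-loaded cpTi 2, 9 to non-loaded cpTi 3, 8 to non-loaded Nb3 alloy 3, 6 to non-loaded Nb3 alloy 1, 4 to non-loaded Nb3 alloy 2 and 1 to non-loaded cpTi 1. Non-loaded cpTi 3 stood apart as the highest for Obp2a (5586 FPKM), Obp1f (4554), Obp3 (776), Pip (240), Dnase1 (213), Obp2b (319), and Lpal2 (2104). It was also the highest for 2 values where the difference was small, Hm13 (44.6, with 43.0 to 43.5 FPKM in the other 5) and Usp9y (0.00680, below the level of 3 reads, with 0 in the other 5). Non-loaded Nb3 alloy 3 was high for Actb (2696 FPKM), Srgn (1397), Mpo (1117), Elane (600.3), Retnlg (255), Spi1 (104), Capg (65.0) and Lyc2 (103). Non-loaded Nb3 alloy 1 was high for Sp7 (30.6 FPKM), Tnfrsf11b (10.97), Umod (1.04), and for the shares of the RANKL and OPG list (0.0369%) and of the BMP and TGF-beta list (0.132%), and low for Atf4 (89.3 FPKM).

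Non-loaded cpTi 2 was high for Matn4 (72.7 FPKM), Sdc1 (39.1), Efnb2 (7.65), Mdk (42.4), Tug1 (0.157) and the share of the ligament and tendon list (0.117%). It was low for Traf6 (5.45 FPKM), Cfd (98.6) and the shares of the macrophage list (0.493%) and of the chemokine list (0.149%). Non-loaded Nb3 alloy 2 was high for H1f0 (71.0 FPKM) and the share of protein synthesis factors (1.204%) and low for Sox6 (6.42) and Kdm5d (8.54), and non-loaded cpTi 1 was high for Hbe1 (2.77).

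For 10 of the 20 most abundant named genes the static minus loaded difference was larger in Nb3 alloy than in cpTi by the interaction term of limma (adjusted p under 0.05 over 15268 genes). The log2 values of that difference were 4.55 for Hba-a2, 5.07 for S100a8, 5.01 for S100a9, 7.28 for Np4, 7.54 for RatNP-3b, 7.34 for Defa5, 4.84 for Hbb-b1, 5.85 for Ngp, 5.98 for Camp and 6.21 for Prg2. The limma adjusted p ran from 1.38e-05 for Defa5 to 0.0107 for Hba-a2. Over all tested genes the interaction was called for 20.2%, and in this direction for 11.8%. The 20 genes were chosen by their static mean, so nothing is read from the count of 10.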

How the results depend on the processing

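For genes called, static minus loaded, leaving out each library in turn gave 4539 to 5916, 2690 to 3429 of them higher and 1849 to 2487 lower. No filter left 1591 lower, rescaling to a common total 1117 lower and 3983 higher (5100 in all, median of all genes 0.16 in place of 0.02), and an absolute log2 difference of at least 1 left 1291 genes, 895 higher and 396 lower. Within cpTi 1 gene was called, 1 higher and 0 lower. With a replicate block 5194 genes were called, 2991 higher and 2203 lower. Same-numbered libraries share only a number, with correlations of their deviations of -0.252 to 0.115, against -0.207 to 0.274 for other pairs. In genes at 1 FPKM or more, the difference of 7.83 lay between -60.3 and 75.7 on leaving out 1 library, and was -173 within Nb3 alloy. The top-100 share differed by -9.10 to -3.93 points (exact p = 0.0281 without loaded cpTi replicate 2) and by 1.55 within cpTi. Genes for 50% of the sum differed by 91.9 to 180 (exact p = 0.0346 without loaded cpTi replicate 2) and by -34.7 within cpTi. Mitochondrial reads differed by -6.23 to -2.25 points (exact p = 0.0433 to 0.0498 without each loaded cpTi replicate) and by 1.06 within cpTi. These p are exact permutation values, unadjusted. Of 420 alternative values of the 20 genes, 396 kept direction and call. Reversed were Rplp0 (0.066 at a common total, 0.00065 within cpTi, 0.00976 without non-loaded Nb3 alloy replicate 1 and -0.184 without replicate 2, its range), Fth1 (0.022 within cpTi) and Obp2a (-0.94 within Nb3 alloy). The causes were not tested. In static bone the top-100 share was 28.4% without mitochondrial genes and 24.7% by reads, and 645 genes made 50% of the sum without mitochondrial genes. Leaving out non-loaded cpTi replicates 2 and 3 together, chosen after seeing the data, gave 12520 for genes at 1 FPKM or more in all 6 static libraries, here the 4 left. Values under about 0.2 FPKM rest on a few reads.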
